A study of Rattus norvegicus with 12 samples.

Results

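Carbonic anhydrase transcripts were followed by RNA sequencing in the livers of obese ZSF1 rats, 6 of them female and 6 male, with 1 library per animal. The members were the rows of the gene count tables whose symbol is Car followed by a number and, where present, the letter a or b, and there were 15 of them among 16478 genes. All animals were untreated adults of 16 weeks kept on rat chow, and all were of the obese phenotype, so both sexes carry whatever that phenotype brings and no lean animal was analysed here. Obese ZSF1 rats are hybrids that received a faulty leptin receptor gene from each parental line. The comparison asks how each gene of the family differed between females and males.

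Carbonic anhydrases are zinc enzymes that convert carbon dioxide and water to bicarbonate and a proton. The family divides by where the proteins sit: in the cytosol (Car1, Car2, Car3, Car7 and Car13), in mitochondria (Car5a and Car5b), outside the cell as a secreted enzyme (Car6), and on the cell surface with the active site facing outward (Car4, Car9, Car12, Car14 and Car15). Car8 and Car11 have lost the residues needed for catalysis. In liver the mitochondrial enzyme supplies bicarbonate to urea synthesis and to pyruvate carboxylase, and Car3, an enzyme of low activity, has long been known as a protein of male rat liver that depends on the pattern of growth hormone secretion.

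The family split by sex in both directions. Car12 was 9.90-fold higher in females and Car3 3.56-fold higher in males, while Car5a, Car8, Car14 and Car6 were not called. Of 15 members, 9 had enough reads to be tested with edgeR's quasi-likelihood test, in which a gene counts as called at a Benjamini-Hochberg adjusted p under 0.05 over all 9943 genes tested. Of these 9, 5 were called: Car12 and Car2 were higher in females, and Car3, Car5b and Car7 were higher in males. Over all tested genes 43.2% were called, 20.5% as higher in females and 22.7% as higher in males, so 5 of 9 (55.6%) stands near that share and is not in itself a result about the family. The median log2 fold change was -0.08 over the 9 members and -0.01 over all tested genes. For 3 members (Car3, Car5b and Car12) the values of females and males did not overlap, and 22.8% of all tested genes showed no overlap.

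**Figure D1:**
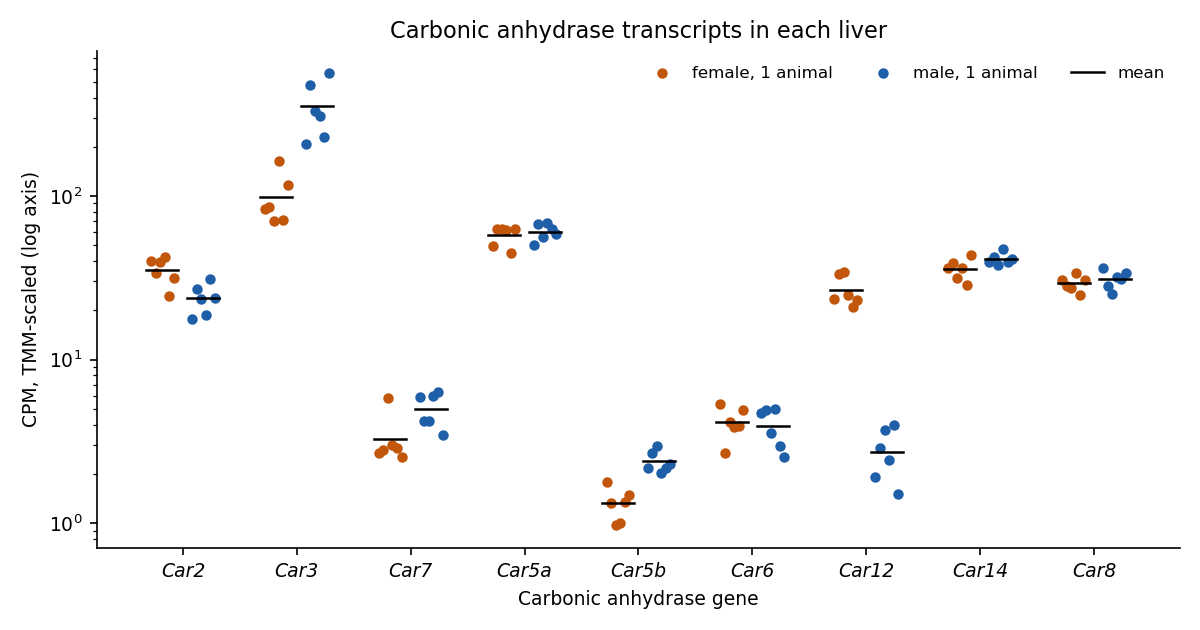
Level of the 9 tested carbonic anhydrases in each animal, in counts per 1000000 reads in genes scaled by TMM factors (CPM) on a log axis; each point is 1 animal (6 females, 6 males) and each line a mean. Females and males are separate for Car3, Car5b and Car12 and overlap for the other 6 genes.

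The labels give the tissue as liver, and the hepatocyte gene Alb was the most abundant marker of its list, at 205700 ± 29940 CPM in females against 161900 ± 22380 in males (SD, n = 6 each). Female libraries held 6763879 to 24837602 reads in genes and male libraries 11381428 to 29232871. Another feature divided the libraries within each sex: the share of reads that did not align was 4.08% to 4.73% in females 7, 9 and 12 and males 1, 3 and 5, and 5.37% to 5.59% in females 8, 10 and 13 and males 2, 4 and 6. Within each sex the first 3 libraries were the smaller ones. Reads set aside because they fit more than 1 gene were 0.359% to 0.388% of all reads in females and 1.24% to 2.20% in males, and their part in the results was not tested. The labels name no batch. Since 3 animals of each sex fall on each side, the sexes were also compared within each side. Nothing in the labels says whether the animals shared a litter. The p-values of the sex comparisons set a difference against the spread between animals and take the animals as independent, which could not be checked. In bulk tissue, fewer cells of a type and less RNA per cell cannot be told apart.

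Car3, the cytosolic enzyme of low activity, was the male-biased member with the widest gap. In females its level ran from 70.4 CPM through a median of 84.4 to 164 CPM, and in males from 208 through 319 to 562 CPM. Even the highest female, female 10, lay below the lowest male, male 1. The means were 98.6 ± 36.4 CPM in females and 352 ± 141 in males (SD, n = 6 each), a 3.56-fold difference with a 95% interval of 2.29 to 5.54 (log2 fold change of females over males -1.83, SE 0.29, edgeR adjusted p = 0.00038). Of 2261 genes called as higher in males, 98, Car3 included, differed by as much or more.

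Car3 varied within each sex, and its values differed between the sides of the library division. The coefficient of variation was 36.9% in females, below the 38.25% of Car7, and 39.9% in males, the largest of the tested members. The 3 females with fewer unaligned reads held 70.4 to 82.7 CPM and the 3 with more held 86.2 to 164 CPM, with no overlap. The males with fewer held 208 to 330 CPM and those with more 308 to 562 CPM, with 1 pair out of order. Car3 was also set against the library total: with log2 of the total, Pearson's r was 0.819 in females (exact permutation p = 0.05) and 0.905 in males (exact permutation p = 0.00972), and Spearman's rho was 0.886 (exact permutation p = 0.0333) and 0.829 (exact permutation p = 0.0583), n = 6 each and 2-sided. Over the 18 relations computed (9 members in each sex) none passed after adjustment, with adjusted exact permutation p of 0.4 and 0.175 for these Pearson values and 0.525 for both Spearman values. Without the 2 libraries whose totals lay farthest from the median, r was 0.826 and 0.755, over 4 animals each. Within each side of the division only 3 animals of a sex remain, too few to give a correlation.

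The sex difference of Car3 was as large within each side. It was -1.77 on the log2 scale (SE 0.17, edgeR adjusted p = 0.000364) among the 6 libraries with fewer unaligned reads and -1.87 (SE 0.30, edgeR adjusted p = 0.0059) among the 6 with more. With the division as a second term in the fit across all 12 it was -1.83, and its SE fell from 0.29 to 0.19 (edgeR adjusted p = 1.12e-05). With log2 of the library total as the second term it was -1.64 (SE 0.18, edgeR adjusted p = 1.62e-05).

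**Figure D2:**
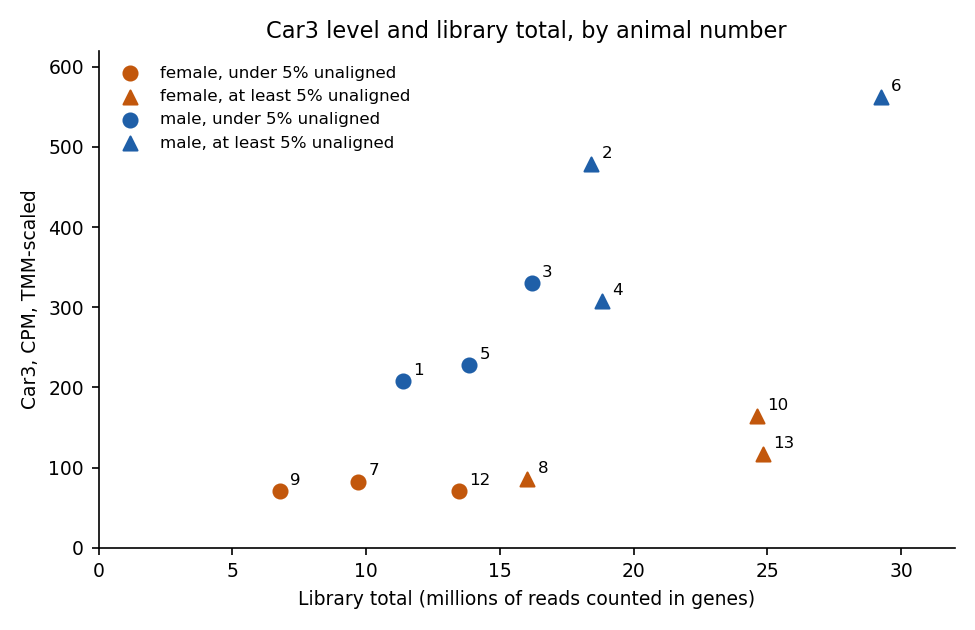
Car3 level (CPM, TMM-scaled) against the library total (reads counted in genes, axis in units of 1000000), 1 point per animal, numbered as in the labels; circles are libraries with under 5% of reads unaligned and triangles those with at least 5%. The 6 males sit between 208 and 562 CPM, above all 6 females at 70.4 to 164 CPM, and Pearson's r with log2 of the total is 0.819 in females and 0.905 in males.

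Car3 is abundant in skeletal muscle and fat, so markers of both were read beside it. Muscle markers summed to 1.21 to 1.95 CPM in females and 3.13 to 4.11 CPM in males over the 9 of 10 symbols that had a row. By reads in all 12 libraries, Tnnc2 had 294, Mylpf 108, Acta1 74, Tnnt3 22, Myh1 4, Tnni2 4, Ckm 3 and Mb and Myh4 had 0. Mylpf, a fast myosin light chain gene, had the direction of Car3, at 0.254 ± 0.149 CPM in females against 0.742 ± 0.246 in males (SD, n = 6 each) with no overlap, and Acta1 stood at 0.495 ± 0.306 against 0.320 ± 0.170 CPM. One muscle list gene was tested, Tnnc2, a troponin C gene, and it was higher in males (log2 fold change -1.89, SE 0.25, edgeR adjusted p = 3.89e-05). Fat markers summed to 16.5 to 25.7 CPM in females and 15.1 to 30.0 CPM in males over 6 of 8 symbols. The most abundant of these was Cidea, at 13.1 ± 2.98 CPM in females against 19.4 ± 5.69 in males (SD, n = 6 each). Lep had no read and Adipoq, the adiponectin gene, had 4 reads in all 12 libraries. Of the 3 fat markers tested 1 was higher in each sex. Among all tested genes 20.5% were called as higher in females and 22.7% as higher in males. The part of muscle or fat in the Car3 difference was not tested.

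Car2, the fast cytosolic enzyme, moved the other way. Females ran from 24.6 through a median of 36.7 to 42.2 CPM, and males from 17.7 through 23.6 to 31.2 CPM. The lowest female, female 12, fell among the males, so the sexes overlapped. The means of 35.3 ± 6.69 and 23.7 ± 5.04 CPM (SD, n = 6 each) gave a 1.49-fold difference toward females with a 95% interval of 1.19 to 1.86 (edgeR adjusted p = 0.00747). The call was lost among the 6 libraries with fewer unaligned reads (log2 fold change 0.51, edgeR adjusted p = 0.208) and kept among the other 6 (0.63, edgeR adjusted p = 0.029).

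Car2 and Car3 are direct neighbours on rat chromosome 2, followed by Car1 and Car13, in the RefSeq annotation of assembly GRCr8 (used for order only). The ratio of Car3 to Car2 reads, which no scaling between libraries can change, lay between 1.78 and 3.90 in females (median 2.72), against 7.30 to 23.7 in males (median 15.2). Every male had a higher ratio than every female, as for the Car3 level alone. Reads of genes are compared here within each library and are not corrected for transcript length, so only the change of the ratio between animals can be read.

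Car2 and Car1 are abundant in red blood cells, so markers of these were read beside Car2. Of 11 red cell symbols 5 had a row and 5 were tested: 3 globin genes were higher in males, and none was called as higher in females. Over all tested genes 22.7% were called as higher in males. Slc4a1, the band 3 anion exchanger gene, had the direction of Car2 without being called (log2 fold change 0.68, unadjusted p = 0.0451, edgeR adjusted p = 0.0909). Among the 6 libraries with fewer unaligned reads the 3 globin genes were called too, and among the other 6 none was. The 5 markers summed to 330 to 782 CPM in females and 571 to 1392 CPM in males. Hba-a2, an alpha globin gene, was higher in males (log2 fold change -0.77, SE 0.27, edgeR adjusted p = 0.0332), a call lost when any of 7 single animals was left out. Globin genes are near-identical copies, so how reads were divided among them is uncertain. Car2 is also found in bile ducts, and none of 3 tested bile duct markers was called. The 4 of 6 bile duct symbols that had a row summed to 18.8 to 24.5 CPM in females and 22.3 to 29.9 CPM in males. The part of these cells in the Car2 difference was not tested.

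Car7, a cytosolic enzyme best known from brain, was a low transcript that leaned toward males. Females ran from 2.54 through 2.82 to 5.82 CPM and males from 3.47 through 5.08 to 6.30 CPM. Female 9 lay among the males, and the other 5 females, at 2.54 to 3.01 CPM, lay below all of them. The difference was 1.57-fold with a 95% interval of 1.15 to 2.15 (log2 fold change -0.65, SE 0.21, edgeR adjusted p = 0.0215). It was the least stable of the 5 calls: the adjusted p of edgeR was 0.0578 without female 13, 0.052 without male 5, and 0.193 and 0.0652 within the libraries with fewer and with more unaligned reads.

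The other cytosolic genes were near the detection limit. Car1 had 85 reads in all and was seen in 11 of 12 libraries, at 0.405 ± 0.268 CPM in females against 0.349 ± 0.283 in males (SD, n = 6 each), a difference that an exact permutation test did not separate from the spread (2-sided p = 0.6). Car13 had 3 reads in all, in 3 libraries. At these depths 3 reads, the limit that a count of 0 allows, correspond to 0.103 to 0.444 CPM in a single library, so most Car1 values lie close to it. Car1 and Car13 failed the filter on low counts and are not among the 9 tested.

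Of the mitochondrial pair, Car5b was called and Car5a was not. Car5a, the liver form, averaged 57.5 ± 8.35 CPM in females against 60.6 ± 7.01 in males (SD, n = 6 each). Its range was 44.8 to 63.2 CPM in females and 50.2 to 68.3 CPM in males, and the ranges overlapped. The log2 fold change was -0.08 (95% interval -0.29 to 0.14, edgeR adjusted p = 0.577; -0.12 and -0.04 within the libraries with fewer and with more unaligned reads), so a difference of more than 1.22-fold toward males or 1.10-fold toward females lies outside the interval. Car5b, the form found in many tissues, was the scarcer transcript by reads, at 0.97 to 1.78 CPM in females (median 1.34) and 2.03 to 2.95 CPM in males (median 2.25), with all 6 males above all 6 females. The difference was 1.81-fold toward males with a 95% interval of 1.40 to 2.35 (log2 fold change -0.85, SE 0.18, edgeR adjusted p = 0.0013). Among the 6 libraries with fewer unaligned reads it was of like size but not called (-0.81, edgeR adjusted p = 0.0715), and among the other 6 it was called (-0.88, edgeR adjusted p = 0.0393). Car5b rests on 379 reads in 12 libraries, Car5a on 12073.

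The ratio of Car5b to Car5a reads lay between 0.0154 and 0.0362 in females (median 0.0223), against 0.0297 to 0.0524 in males (median 0.0396). The ranges of this ratio overlapped, whereas those of the Car5b level did not.

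Car12, a surface enzyme with an extracellular active site, showed the widest sex difference of the family. Its upstream sequence is shown because it carries the largest change. The sequences here are the 250 bases before the annotated start, 5′ to 3′ on the gene's strand, from RefSeq on build GRCr8, whose promoter table matched 9 of 15 members and 5 of the 9 tested; Car2, Car3, Car6 and Car8 were not matched. Capitals mark a match to a searched motif on either strand.

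Car12, chr8:76169565-76169814, + strand: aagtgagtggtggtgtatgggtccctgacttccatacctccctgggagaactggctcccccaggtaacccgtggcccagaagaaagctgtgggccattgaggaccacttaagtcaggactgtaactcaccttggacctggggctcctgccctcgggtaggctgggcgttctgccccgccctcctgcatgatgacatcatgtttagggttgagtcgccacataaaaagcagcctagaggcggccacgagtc

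Females held 21.0 to 34.4 CPM of Car12 with a median of 24.0, and males 1.51 to 3.98 CPM with a median of 2.66. The lowest female, female 12, was 5.27 times as high as the highest male, male 5. The means of 26.7 ± 5.73 and 2.73 ± 0.977 CPM (SD, n = 6 each) gave a log2 fold change of 3.31 (SE 0.21, 95% interval 2.85 to 3.77, edgeR adjusted p = 7.46e-08). As a fold this is an interval of 7.19 to 13.6. Only 27 of the 2037 genes called as higher in females, Car12 included, differed by as much. Within the libraries with fewer and with more unaligned reads the log2 fold change was 2.99 (edgeR adjusted p = 0.000364) and 3.61 (edgeR adjusted p = 0.00021). The gene rests on 2458 reads in females and 277 in males. Leaving out any 1 animal kept it between 3.14 and 3.44.

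**Figure D3:**
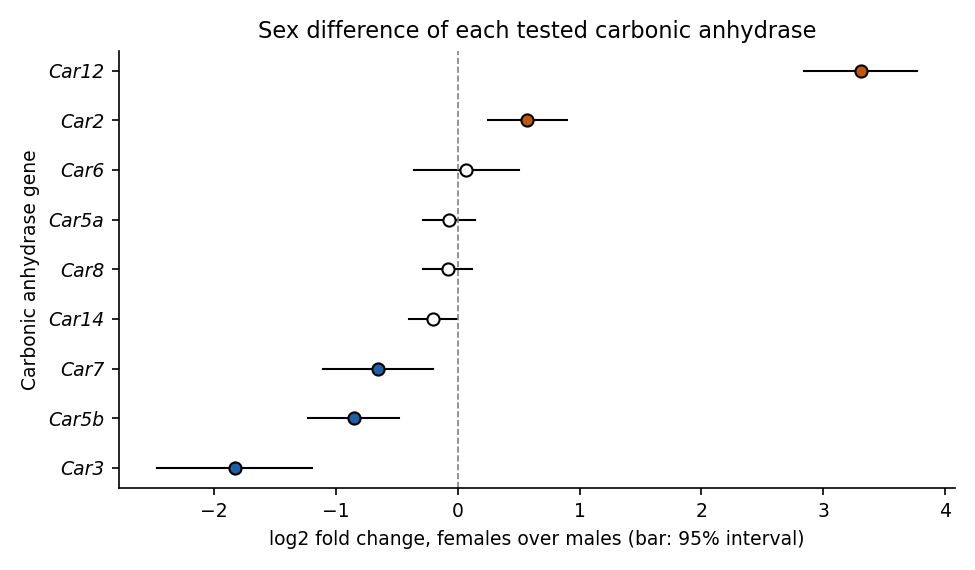
Log2 fold change of females over males for the 9 tested carbonic anhydrases, with 95% intervals from the edgeR fit; filled points are called (orange higher in females, blue higher in males) and open points are not. Car12 at 3.31 and Car3 at -1.83 lie farthest from 0 in each direction.

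The motifs searched were the STAT5 site TTCNNNGAA, which reads the same on both strands, and the core of the hypoxia response element, ACGTG or GCGTG on either strand, and neither motif is contained in the other. Neither occurs in the 250 bases before Car12. Over all 33469 promoters of this length 7.67% held the STAT5 letters and 36.7% the hypoxia core. The other called members with an entry were Car5b and Car7, shown for comparison because both went the other way.

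Car5b, chrX:34118776-34119025, + strand: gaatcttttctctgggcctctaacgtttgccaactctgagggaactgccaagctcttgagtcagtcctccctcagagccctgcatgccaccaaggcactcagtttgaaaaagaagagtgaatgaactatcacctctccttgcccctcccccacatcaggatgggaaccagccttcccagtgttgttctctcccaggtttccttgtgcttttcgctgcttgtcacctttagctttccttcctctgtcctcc

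Car7, chr19:444915-445164, - strand: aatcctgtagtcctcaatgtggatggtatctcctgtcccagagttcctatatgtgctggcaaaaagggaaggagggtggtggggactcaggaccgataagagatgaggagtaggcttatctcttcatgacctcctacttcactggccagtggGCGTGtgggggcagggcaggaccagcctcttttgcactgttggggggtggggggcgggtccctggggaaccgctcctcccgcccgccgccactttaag

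Car7 held the hypoxia core once, as GCGTG on its own strand, 98 to 94 bases before the start, and Car5b held neither motif. Of the uncalled tested members with an entry, Car14 held the core once and Car5a held none. These matches describe letters only.

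Car14, another transmembrane enzyme of the hepatocyte surface, leaned toward males without being called. Females ran from 28.4 through 36.3 to 43.5 CPM and males from 37.8 through 40.6 to 47.1 CPM, with means of 35.8 ± 5.38 and 41.3 ± 3.23 CPM (SD, n = 6 each). The log2 fold change was -0.20 (95% interval -0.40 to -0.01, unadjusted p = 0.0439, edgeR adjusted p = 0.0889). Like Car3, it was higher in the libraries with more unaligned reads, without overlap in either sex: 36.4 to 43.5 against 28.4 to 36.2 CPM in females and 41.4 to 47.1 against 37.8 to 39.8 CPM in males. Over 24 alternatives its log2 fold change ran from -0.29 to -0.09, and 2 of them called it: the division as a second term (-0.21, edgeR adjusted p = 0.0268) and the fit without female 13 (-0.26, edgeR adjusted p = 0.0294). Leaving out male 4 gave -0.15 (edgeR adjusted p = 0.191), and leaving out both male 4 and female 12 gave -0.09 (edgeR adjusted p = 0.365). Within the libraries with fewer and with more unaligned reads it was -0.29 (edgeR adjusted p = 0.0678) and -0.13 (edgeR adjusted p = 0.339).

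The remaining surface enzymes were scarce. Car9, a classic hypoxia target, had 56 reads in 11 of 12 libraries, at 0.202 ± 0.152 CPM in females against 0.335 ± 0.139 in males (SD, n = 6 each; exact permutation 2-sided p = 0.136). Car4 had 2 reads, both in male 4. Car15 had none in any library, which over all 12 libraries together allows up to 0.0148 CPM. These limits cover counting error only.

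Because Car9 and Car12 are known targets of hypoxia, 14 genes of that response were read beside them. Of 13 tested, 3 were higher in females, 3 in males and 7 were not called, with a median log2 fold change of 0.05 where all genes had -0.01. Called genes made up 43.2% of all tested genes. The female-biased genes included P4ha1, a collagen prolyl hydroxylase gene, at 21.7 ± 5.71 against 12.2 ± 2.33 CPM (SD, n = 6 each), and Pdk1, which restrains pyruvate oxidation, at 78.7 ± 9.68 against 52.7 ± 6.75 CPM. The male-biased genes included Slc2a1, a glucose transporter gene, at 0.89 ± 0.249 against 2.26 ± 0.523 CPM. Vegfa, at 268 ± 23.1 and 259 ± 27.0 CPM, was not called (edgeR adjusted p = 0.684). Without female 8 or female 13 only 1 gene of the list was higher in males. Within the libraries with fewer unaligned reads the list held 2 calls toward females and 1 toward males, and Pdk1 was not called (edgeR adjusted p = 0.0562). Within the other 6 libraries 1 was higher in females and 3 in males, and P4ha1 was not called (edgeR adjusted p = 0.0824).

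Car6, the secreted enzyme of saliva, was a low transcript in both sexes. It lay at 2.67 to 5.33 CPM in females against 2.52 to 4.99 CPM in males, with overlapping ranges. The log2 fold change was 0.07 with a 95% interval from -0.36 to 0.50 (edgeR adjusted p = 0.807), so differences of up to 1.41-fold toward females or 1.28-fold toward males remain within the interval. Within the libraries with fewer and with more unaligned reads it was 0.27 and -0.09, neither of them called.

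Among the members without enzyme activity, Car8, which binds the inositol trisphosphate receptor, lay at 25.0 to 33.7 CPM in females against 25.1 to 36.4 CPM in males. The means were 29.2 ± 3.04 and 31.1 ± 4.07 CPM (SD, n = 6 each) and the log2 fold change was -0.08 (95% interval -0.28 to 0.11, edgeR adjusted p = 0.49; -0.15 and -0.02 within the libraries with fewer and with more unaligned reads). Car8 had the smallest spread among females, with a coefficient of variation of 10.4%, of the 9 tested genes. Car11 had 90 reads in all, at 0.334 ± 0.21 CPM in females against 0.544 ± 0.128 in males (SD, n = 6 each). An exact permutation test gave 2-sided p = 0.0519, and with 1 animal left out the exact permutation p ran from 0.013 (without female 8) to 0.106 (without female 10), under 0.05 for 3 animals and above it for 9. In an edgeR fit with no filter on low counts the adjusted p was 0.256.

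The members together showed how unevenly the family is made up. Summed over all 15, carbonic anhydrase transcripts took 223 to 372 CPM in females (median 285) and 368 to 730 CPM in males (median 490). Car3 alone gave 33.0% ± 6.58 of these reads in females and 65.3% ± 8.60 in males (SD, n = 6 each), and its share ranged from 25.4% to 44.1% and from 55.7% to 77.0%. Car12 gave 9.29% ± 2.28 in females and 0.565% ± 0.267 in males. The share of Car2 was 12.1% ± 1.96 in females and 4.74% ± 1.54 in males. Car5a, which was not called in CPM, gave 19.8% ± 2.25 and 12.1% ± 2.73. These are shares of reads, in which a longer transcript counts more, and a rise of Car3 lowers every other share.

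**Figure D4:**
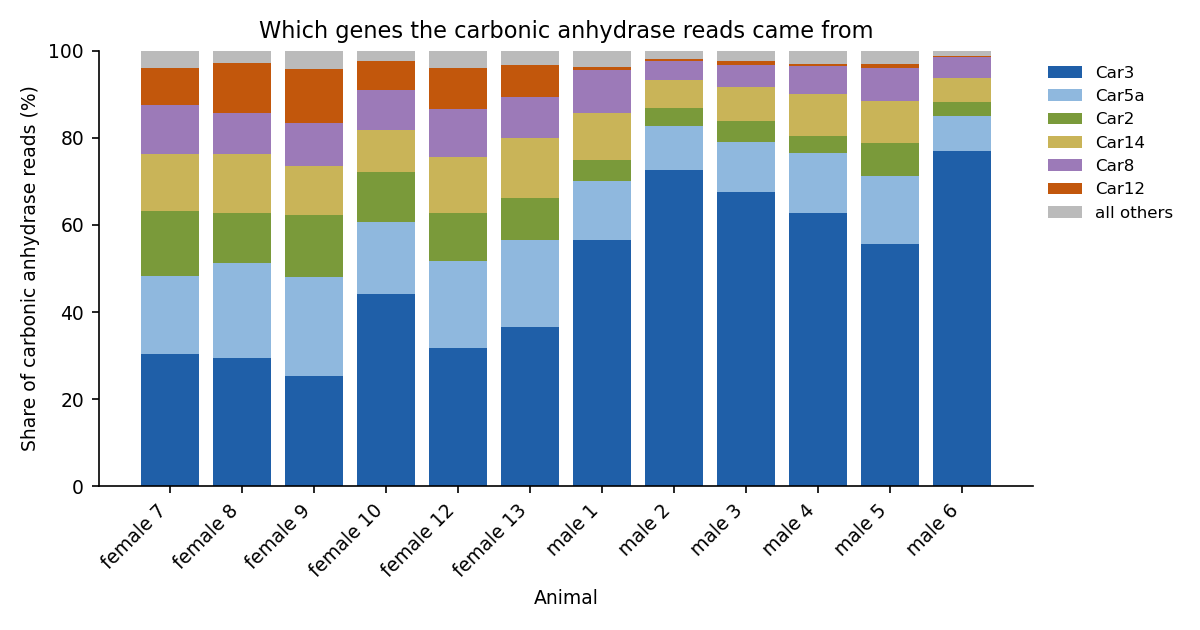
Share of all carbonic anhydrase reads (%) that each gene gave in each animal, as stacked bars that sum to 100; the 9 genes with the smallest shares are merged as all others. Car3 takes 25.4% to 44.1% of the reads in females and 55.7% to 77.0% in males, and Car12 is visible as a band mainly in females.

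Bicarbonate is moved by transporters that work beside the surface enzymes. Of 27 symbols of bicarbonate and proton transporters, 25 had a row and 12 were tested. Of these 12, 5 were higher in females, 1 in males and 6 were not called, with a median log2 fold change of 0.23. Among all 9943 tested genes 20.5% were called as higher in females and 22.7% as higher in males, with a median of -0.01. Within the libraries with fewer unaligned reads 2 were higher in females and 0 in males (12 tested), and within the other 6 libraries 4 and 0 (14 tested). Slc4a4, the sodium bicarbonate cotransporter gene, averaged 33.5 ± 2.77 CPM in females against 15.1 ± 3.65 in males (SD, n = 6 each; log2 fold change 1.16, SE 0.14, edgeR adjusted p = 1.47e-05). Slc4a7 and Slc26a2 were higher in females by 0.79 and 1.22 on the log2 scale, and Slc9a8, a sodium proton exchanger gene, by 0.42. The gene higher in males was Slc26a1, at 220 ± 29.6 CPM in females against 293 ± 52.1 in males (SD, n = 6 each). Its log2 fold change was -0.42 (SE 0.12, edgeR adjusted p = 0.0122), and it was called within neither side of the library division. Slc4a4 and Slc26a2 were called within each side of the library division, Slc4a7 only within the side with more unaligned reads (edgeR adjusted p = 0.23 in the other), and Slc9a8 within neither (edgeR adjusted p = 0.143 and 0.133). Bsg, the basigin gene, whose product escorts lactate transporters to the membrane, was the most abundant uncalled gene at 414 ± 26.4 and 472 ± 74.1 CPM (edgeR adjusted p = 0.113).

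Enzymes that use bicarbonate were called in both directions. Of 9, all tested, 2 were higher in females, 3 in males and 4 were not called, with a median of -0.01. Called genes made up 43.2% of all tested genes. Those higher in females were the acetyl-CoA carboxylase genes: Acacb was higher by 1.94 (SE 0.24, edgeR adjusted p = 5.31e-05) and Acaca by 0.74 (SE 0.18, edgeR adjusted p = 0.00551) on the log2 scale. Pyruvate carboxylase, Pc, averaged 581 ± 98.7 CPM in females against 860 ± 71.8 in males (SD, n = 6 each), and Pcca, of propionate breakdown, was also higher in males (log2 fold change -0.60). Cps1, which starts the urea cycle with bicarbonate, was not called at 3445 ± 436 and 3097 ± 728 CPM (edgeR adjusted p = 0.436), as Car5a was not.

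Car2 and Car3 have been placed in the pericentral hepatocytes, so zone markers were read beside them. Of 8 tested pericentral markers 4 were called toward females and 1 toward males (median log2 fold change 0.40), and of 10 periportal markers 1 was called toward females and 7 toward males (median -0.62). Over all tested genes 20.5% were called toward females and 22.7% toward males. Within each side of the library division 2 pericentral markers were called toward females and 1 toward males, and 5 and 6 periportal markers were called toward males. Oat, an ornithine aminotransferase gene, averaged 911 ± 201 CPM in females against 153 ± 24.5 in males (SD, n = 6 each), and Sds, a serine dehydratase gene, stood at 3.91 ± 1.67 and 149 ± 72.6 CPM. Rhbg, an ammonium transporter gene of the pericentral zone, was higher in males (log2 fold change -1.25, SE 0.17, edgeR adjusted p = 4.43e-05). Of the 5 called pericentral markers 4 thus had the direction of Car2 and Car12 and not that of Car3, and their part in these differences was not tested.

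Markers of other cells also differed. Of 4 tested sinusoidal endothelial markers 3 were higher in females, and their list summed to 76.1 to 94.5 CPM in females and 28.1 to 76.0 CPM in males. Of 6 macrophage markers 2 were higher in females, with sums of 118 to 179 and 70.3 to 270 CPM. Over all tested genes 20.5% were called as higher in females and 22.7% as higher in males. Within the libraries with fewer and with more unaligned reads, 1 and 2 of the endothelial and 2 and 0 of the macrophage markers were called as higher in females. Exocrine pancreas markers summed to 7.01 to 40.0 CPM in females and 11.9 to 14.3 CPM in males, 1 of 3 tested was higher in each sex, and Prss1 and Prss2 had no read. Their part in the carbonic anhydrase differences was not tested.

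The genes whose profile over the 12 livers lay nearest to that of Car3 were searched by the root mean square difference of log2 CPM, after each gene was centred on its mean. They were RGD1559600 (0.38), LOC689757 (0.39), Galr3 (0.41), Gpt (0.42) and Nnmt (0.43). Gpt, an alanine aminotransferase gene, averaged 110 ± 14.9 CPM in females against 425 ± 52.1 in males, and Nnmt, a nicotinamide methyltransferase gene, stood at 23.4 ± 3.82 and 83.2 ± 16.8 CPM (SD, n = 6 each). For both genes, as for Car3, no female reached the lowest male. Both were picked for closeness to Car3 in these same livers, and 22.8% of all tested genes showed no overlap. Nearest to Car12 were Slc7a5 (0.37), Ky (0.38), Dusp15 (0.41), Cadps (0.41) and Cdh7 (0.43). Slc7a5, a large neutral amino acid transporter gene, averaged 17.3 ± 1.08 CPM in females against 1.91 ± 0.638 in males, and Ky stood at 89.0 ± 7.98 and 9.40 ± 1.02 CPM (SD, n = 6 each). Likeness here is mostly the size of the sex difference in log2 CPM, since that is the largest part of each profile. That log2 CPM adds a prior count of 2, which shrinks the differences of genes with few reads. Dusp15, Cadps and Cdh7 had 7, 46 and 13 reads in males. Their fitted log2 fold changes were 4.93, 4.04 and 4.06, against 3.31 for Car12.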

How the data were processed

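The labels' protocols describe TruSeq RNA libraries built from liver total RNA (1 µg) of 12 rats. Bowtie2 2.0.2, DESeq and build rn4 appear in the submitters' processing notes. How reads were counted, with which annotation and strand setting, was not given in the sources used here. The deposited files carry the word strand in their names without giving a setting, so reads of antisense genes may not be told apart. Reads that fit more than 1 gene stand in a row of their own. Per the labels and the values, the authors deposited raw read counts per gene symbol without normalization. In each file 5 rows name no gene, hold 27.1% to 31.7% of reads and were left out.

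The counts of all genes were fitted in edgeR 4.0.16 (R 4.3.3) after filterByExpr, which kept 9943 genes (smallest count 10, smallest total 15), with TMM scaling and the robust quasi-likelihood F test of females against males. P-values were adjusted by Benjamini-Hochberg over these genes. CPM values are per 1000000 reads scaled by the TMM factors, and log2 CPM uses a prior count of 2. SE was taken as the log2 fold change over the root of F. Members that failed the filter were compared by a 2-sided exact permutation test over 924 assignments (smallest p 0.00216). The steps were tested on simulated data. Each library was counted as 1 animal, as labelled, and all 30 pairs of the same sex differed by more than sampling noise, so none looked like a repeated deposit of 1 library.

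The members, lists and tests were chosen with earlier results of these data known. Genes named were all members, up to 4 called genes and the most abundant uncalled gene of each of 5 lists, the most abundant gene of each marker list and the 5 genes nearest to Car3 and Car12. Of the 43 others this named, those described were chosen after their values were seen. So were other list genes such as Lep, Adipoq, Mb, Myh4, Ckm, Prss1, Prss2, Cela1 and Slc26a1, and the neighbours in the closing section. The division by unaligned reads was also found in the data. Alternatives were other scalings and filters, DESeq2 1.42.0, limma-voom (limma 3.58.1), leaving out animals, and fits within or adjusted for that division or the library total. All 15 symbols matched the RefSeq gene table of GRCr8, which was used for names and order, since its build differs from rn4.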

Additional observations from a re-analysis of the deposited data

Results flagged for a closer look

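In 1 of 18 groups of 6 values checked for the tested carbonic anhydrases, 1 animal stood apart from the rest. This was Car7 in female 9, at 5.82 CPM where the other 5 females had 2.54 to 3.01. The ratio of gap over range, here and below taken on log2 CPM, was 0.799, above the 95% critical value for 6 animals. Chance gives about 1 such group in 20. Among the other named genes the same check marked female 12 for Slc26a2 (4.36 CPM against 2.36 to 2.96, ratio 0.63), P4ha1 (33.0 against 16.9 to 21.4, ratio 0.643), Gpt (82.4 against 108 to 123, ratio 0.677), Slc7a5 (15.3 against 17.3 to 18.5, ratio 0.648) and Cadps (4.51 against 7.31 to 8.56, ratio 0.753). It marked male 4 for Bsg (615 CPM against 417 to 472, ratio 0.682) and Alb (119200 against 163100 to 181700, ratio 0.744), female 9 for Clec4f (57.8 against 76.9 to 86.0, ratio 0.717) and female 7 for Cpa1 (2.37 against 13.9 to 36.1, ratio 0.644). In all, 10 of 104 groups were marked.

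The rows that name no gene hold a sex difference of their own. Reads set aside because they fit more than 1 gene made up 1.74% ± 0.337 of all reads in males and 0.376% ± 0.0119 in females (SD, n = 6 each; exact permutation p = 0.00216, the smallest 6 against 6 animals allow), with ranges of 1.24% to 2.20% and 0.359% to 0.388%. The files do not say which genes these reads would have belonged to, so whether any carbonic anhydrase lost reads this way was not tested.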

How the results depend on the processing

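The differences of Car1, Car9 and Car11 were recomputed under 13 alternatives. Fitted fold changes of the tested members and 43 other named genes were recomputed under 24 alternatives. So were the numbers of calls among all genes, the members and the 5 lists. Car12 (log2 fold change 2.99 to 3.61) and Car3 (-2.03 to -1.64) kept direction and call in all of them. Car5b lost its call in 1, Car2 in 1 and Car7 in 5, and Car14 was called in 2. The number of members called, 5 of 9, ran from 4 to 5 with 1 animal left out. It was 2 of 9 tested among the 6 libraries with under 5% unaligned reads and 4 of 11 tested among the other 6. In the libraries with under 5%, 2052 of 9757 tested genes were called, and 19 of the 52 tested genes of the 5 lists (30 in all 12 libraries). Among the libraries with at least 5% unaligned reads 2668 of 10263 tested genes were called, against 4298 of 9943 with 12 libraries. These fits hold 3 animals a sex. The median log2 fold change of all genes stayed between -0.03 and 0.02 over these fits. Over 43 other named genes, 970 of 1032 values kept direction and side of the threshold, 51 lost and 11 gained a call, and 0 reversed. No paired analysis was possible because females and males share no animal number in the labels. Depth limits Car1, Car4, Car9, Car11, Car13 and Car15, where 3 reads correspond to 0.103 to 0.444 CPM in a library.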

Other observations

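Some genes that directly neighbour carbonic anhydrases in the GRCr8 annotation differed far more by sex than the carbonic anhydrase beside them. Car8 was not called (log2 fold change -0.08), while Tox, the gene before it, averaged 7.60 ± 1.56 CPM in females against 0.122 ± 0.111 in males (log2 fold change 5.95, SE 0.35, edgeR adjusted p = 1.07e-08). Car5a was not called (-0.08), while the gene before it, Slc7a5, which was also the gene nearest in profile to Car12, was higher in females (log2 fold change 3.19, SE 0.15, edgeR adjusted p = 7.87e-10). Next to Car11, Dbp, a clock output gene, averaged 7.07 ± 4.69 CPM in females against 56.1 ± 29.9 in males (log2 fold change -3.04, SE 0.46, edgeR adjusted p = 0.00029; SD, n = 6 each). These neighbours were picked after their values were seen.

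The division of the libraries by unaligned reads follows the order of the animal numbers within each sex: every other animal, from 1 to 6 and from 7 to 13, falls on the same side. The labels do not say what the alternation stands for.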
